A study of Mus musculus with 16 samples.

Results

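The caveolins Cav1 and Cav2, the cavins Cavin1, Cavin2 and Cavin3, and Ehd2 were followed in RNA from 16 primary epicardial explants of the mouse, of which 8 received blebbistatin and 8 served as untreated controls. They are 6 of the 15805 genes in the count table, and were taken by name, not by a measured value, though with earlier results of these data known. The table lists the cavins under the older symbols Ptrf (Cavin1), Sdpr (Cavin2) and Prkcdbp (Cavin3). The epicardium is the mesothelial sheet that covers the heart. Per the labels, the mice were C57BL6, the cell type was epicardial and explants were kept on collagen gel. Blebbistatin inhibits class II myosins, and its stated target in the study was the nonmuscle form. Its dose reads 20 in the labels, but the unit is written both as mM and as mm, and the true concentration is uncertain. No source used here gives the age of the mice or says whether controls received the drug's solvent. The labels count explants but do not say that they came from separate animals, so p-values measure the spread between these explants only.

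Caveolae are small flask-shaped pits of the plasma membrane, rich in cholesterol. Caveolin proteins sit in the membrane and oligomerise, and cavins form a coat on its cytoplasmic side, with Cavin1 needed for the pit to form. Caveolae flatten when the membrane is stretched and so serve as a reserve of membrane, and they are plentiful in mesothelium, endothelium, fat and muscle. Whether a drug that stops actomyosin from pulling changes the RNA of these coat genes is the comparison that the members allow.

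Cav1 and Cav2 lie next to each other on chromosome 6, and both had lower mean levels with blebbistatin, whereas Cavin2, on chromosome 1, had a higher one. The RefSeq sequences before the transcription starts of these 3 genes are shown for that reason, each 250 bases on the plus strand of GRCm38.p6, with letters in capitals where a searched motif matched. The windows are chr6:17306085-17306334 (Cav1), chr6:17280935-17281184 (Cav2) and chr1:51288876-51289125 (Cavin2).
Cav1: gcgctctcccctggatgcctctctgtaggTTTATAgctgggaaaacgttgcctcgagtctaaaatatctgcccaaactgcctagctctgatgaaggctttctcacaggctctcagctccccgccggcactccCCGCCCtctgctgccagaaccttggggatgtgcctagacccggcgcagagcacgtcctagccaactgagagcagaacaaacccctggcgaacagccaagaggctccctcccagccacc
Cav2: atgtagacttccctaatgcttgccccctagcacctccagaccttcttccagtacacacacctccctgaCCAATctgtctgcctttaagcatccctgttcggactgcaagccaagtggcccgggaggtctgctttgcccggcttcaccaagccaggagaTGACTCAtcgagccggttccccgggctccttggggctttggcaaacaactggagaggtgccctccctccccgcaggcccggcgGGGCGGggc
Cavin2: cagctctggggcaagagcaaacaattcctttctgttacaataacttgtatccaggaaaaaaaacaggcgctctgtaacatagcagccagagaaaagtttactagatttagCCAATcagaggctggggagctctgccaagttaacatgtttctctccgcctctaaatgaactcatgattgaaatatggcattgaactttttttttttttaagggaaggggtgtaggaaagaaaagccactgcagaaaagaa
The Cavin2 window was the poorest in G and C among the 5 members with a RefSeq entry (Cav1, Cav2, Cavin1, Cavin2 and Ehd2). G and C made up 40.4% of it, with 2 CpG pairs, against 59.6% and 10 for Cav1, 62% and 10 for Cav2, 67.6% and 12 for Cavin1, and 58% and 12 for Ehd2. The median over 32851 such windows of all genes was 52.4%, with 6 CpG pairs. With both strands searched, the GC box GGGCGG was found in the Cav1, Cav2, Cavin1 and Ehd2 windows and in 32.7% of all windows, but not in that of Cavin2. CCAAT was found in the windows of Cav2, Cavin1, Cavin2 and Ehd2 and in 33.8% of all. TGANTCA was found in that of Cav2 (6.75% of all) and TATAAA in that of Cav1, on the minus strand (12.4% of all). GGAATG was found on the minus strand of the Cavin1 window (12.6% of all). The CArG box (1.47% of all) and TCACNCCAC (1.05% of all) matched none of the 5. GGGCGG and the other motifs did not overlap each other in the windows shown. RefSeq lists another start for Cav1, 1305 bases downstream, whose window held none of these motifs.

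Of the 6 members 0 passed the test across all genes, edgeR's quasi-likelihood test with Benjamini-Hochberg adjustment at 0.05, in which 95 of 15675 genes passed, or 0.606%. At an unadjusted p under 0.05 stood 3 of the 6, against 12.2% of all genes. Cav1 and Cav2 were lower under blebbistatin (5.98% of all genes) and Cavin2 was higher (6.21% of all genes). DESeq2 called these 3, where it called 2.63% of all genes, 1.19% as higher and 1.44% as lower. With limma voom 0 of 6 passed, against 0.785% of all. Groups that did not overlap at all in TMM-scaled CPM were found for 0 members and for 0.242% of all genes. The adjusted p-values of Cav1, Cav2 and Cavin2 in DESeq2 were 0.0496, 0.0395 and 0.00865. Over the 6, the median log2 fold change was −0.24, against 0.035 over all tested genes. For scale, Ccn2, a target gene of mechanical signalling, fell from a mean of 681 to 199 CPM (log2 fold change −1.77, adjusted p = 0.00283 by edgeR), and Acta2, smooth muscle actin, fell from 1037 to 445 CPM (−1.22, adjusted p = 0.00411 by edgeR).

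**Figure D1:**
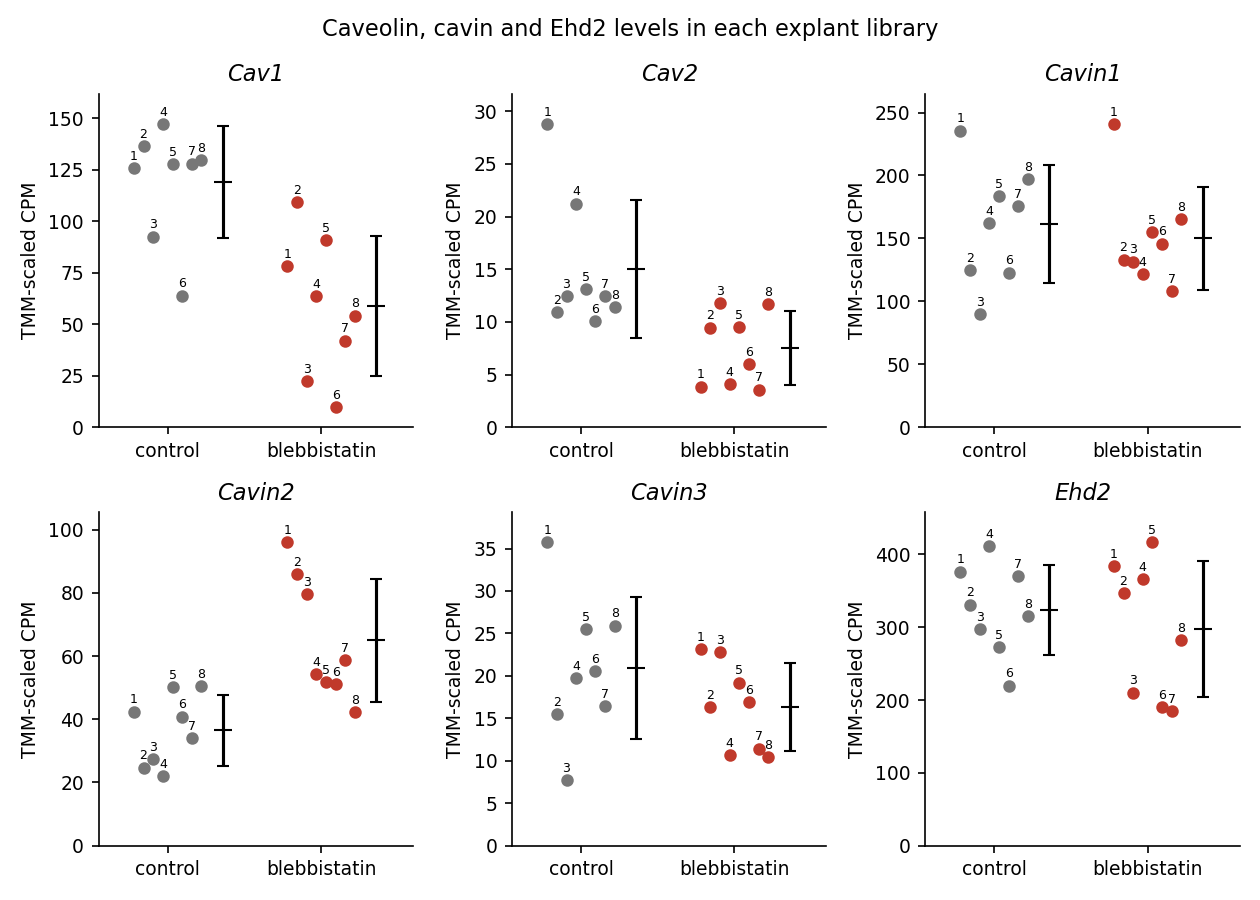
Level of each member in TMM-scaled CPM (read counts relative to library size as scaled by edgeR) in each library, by group, numbered by replicate, with mean and SD in black beside the points. All 8 blebbistatin libraries lie below the control median for Cav1 and Cav2 and above it for Cavin2, and no member separates the groups fully.

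Cav1 encodes caveolin 1, a main structural protein of caveolae (ENSMUSG00000007655, chromosome 6, 17306335 to 17341452, plus strand). In TMM-scaled CPM, it ran from 9.55 to 109 with a median of 58.9 with blebbistatin, and from 63.8 to 147 with a median of 128 in controls. The groups overlapped: 5 of 8 treated libraries lay below every control and 8 of 8 below the control median. Of these 5, blebbistatin 4 (63.73 CPM) lay only just below the lowest control, control 6 (63.83 CPM). The means with SD were 58.8 ± 33.9 and 119 ± 27.2 CPM over 8 libraries each. The log2 fold change was −1.02, with SE 0.34 and a 95% interval from −1.72 to −0.31, and its adjusted p was 0.188 by edgeR. Treated libraries spread widely, with an 11.5-fold range against 2.31-fold in controls, and the raw counts of Cav1 ran from 202 to 8462. Blebbistatin 6 (9.55 CPM) and blebbistatin 3 (22.3 CPM) were the lowest of all 16 libraries.

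Cav2 encodes caveolin 2, which joins caveolin 1 in mixed oligomers and relies on it to reach the cell surface (ENSMUSG00000000058, chromosome 6, 17281185 to 17289115, plus strand). It ran from 3.56 to 11.8 CPM (median 7.70) with blebbistatin and from 10.1 to 28.8 (median 12.4) in controls. Again the groups overlapped, with 6 of 8 treated libraries below every control. The means with SD were 7.48 ± 3.51 and 15.04 ± 6.54 CPM over 8 libraries each. The log2 fold change was −1.004, with SE 0.31 and a 95% interval from −1.65 to −0.36, and its adjusted p was 0.15 by edgeR. Its counts were few, 85 to 805 per library. Blebbistatin 4, 6 and 7 lay below every control for both genes (4.06, 5.96 and 3.56 CPM of Cav2). With 5 of 8 treated libraries below every control for Cav1 and 6 of 8 for Cav2, no smaller overlap was possible. It is therefore no sign of shared low levels. Blebbistatin 1, 2 and 5 were below every control for Cav2 only (3.85, 9.45 and 9.50 CPM). Blebbistatin 3 and 8 were so for Cav1 only, and held the most Cav2 of the treated group (11.8 and 11.7 CPM).

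The start of Cav1 lies 17220 bases beyond the end of Cav2, on the same strand. Both genes lie within Gm15581, an antisense gene on the other strand (17206823 to 17385604). No source used here gives the strand setting of the counting, and the overlap was found from whole genes, not exons. How any reads shared by Gm15581 and the caveolins were counted is therefore unknown. Gm15581 itself had 21 to 239 counts per library. Its means were 2.17 ± 1.83 CPM in treated and 1.42 ± 1.15 CPM in control libraries (SD, n = 8), with a log2 fold change of 0.62 (adjusted p = 0.696 by edgeR), opposite in sign to those of the caveolins. That sign rests on blebbistatin 1 and 8 (5.11 and 5.05 CPM). The other treated libraries ran from 0.569 to 1.94 CPM, against 0.619 to 3.88 CPM in controls. Any part of Gm15581 reads in the caveolin counts was not tested.

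Cavin1, which encodes the coat protein without which caveolae do not form (ENSMUSG00000004044, chromosome 11, 100956733 to 100970887, minus strand), had nearly equal levels in both groups. It ran from 108 to 241 CPM (median 139) with blebbistatin and from 90.0 to 236 (median 169) in controls, and the groups covered nearly the same range. The means with SD were 150 ± 41.0 and 162 ± 46.9 CPM over 8 libraries each. The log2 fold change was −0.10, with SE 0.18 and a 95% interval from −0.49 to 0.28, and its adjusted p was 0.859 by edgeR. The interval leaves out a change as large as that estimated for Cav1 and Cav2. Although 7 of 8 treated libraries lay below the control median, blebbistatin 1 held the highest level of all 16.

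Cavin2, also named serum deprivation response protein, encodes a cavin that binds phosphatidylserine and helps to curve the membrane (ENSMUSG00000045954, chromosome 1, 51289126 to 51302960, plus strand). It ran from 42.2 to 96.0 CPM (median 56.5) with blebbistatin and from 22.02 to 50.6 (median 37.5) in controls. Of 8 treated libraries 7 lay above every control, and blebbistatin 8, the lowest, lay within the control range. The means with SD were 65.0 ± 19.5 and 36.5 ± 11.2 CPM over 8 libraries each. The log2 fold change was 0.83, with SE 0.21 and a 95% interval from 0.40 to 1.26, and its adjusted p was 0.0636 by edgeR. By p-value this was rank 164 of 15675 genes, while Cav2 was rank 413 and Cav1 rank 586. It passed edgeR when only genes of at least 5 CPM in 8 libraries were tested (adjusted p = 0.0317), where 170 genes passed in all. It also passed edgeR with a macrophage covariate (adjusted p = 0.0481), where 255 genes passed against 95 in the main fit, and it passed in DESeq2. Cavin2 did not pass with limma voom (adjusted p = 0.0631). Nor did it pass edgeR with replicate number as a block (adjusted p = 0.11) or with a covariate of Y-linked genes (adjusted p = 0.267).

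Cavin3, whose protein binds protein kinase C delta (ENSMUSG00000037060, chromosome 7, 105480083 to 105482300, minus strand), ran from 10.4 to 23.1 CPM (median 16.6) with blebbistatin and from 7.71 to 35.7 (median 20.1) in controls. The treated range lay wholly inside that of the controls. The means with SD were 16.4 ± 5.18 and 20.9 ± 8.37 CPM over 8 libraries each. The log2 fold change was −0.35, with SE 0.26 and a 95% interval from −0.89 to 0.19, and its adjusted p was 0.641 by edgeR. Part of Cavin3 overlaps the unclassified gene Gm45667 on the other strand, and Cavin2 lies within the antisense gene 9330175M20Rik.

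Ehd2 encodes an ATPase that rings the neck of caveolae and holds them at the cell surface (ENSMUSG00000074364, chromosome 7, 15946958 to 15967567, minus strand). It ran from 184 to 417 CPM (median 314) with blebbistatin and from 220 to 411 (median 323) in controls. Treated libraries fell on both sides of the control median, 4 and 4, and 3 of them (blebbistatin 3, 6 and 7) lay below every control. The means with SD were 297 ± 93.2 and 324 ± 61.8 CPM over 8 libraries each. The log2 fold change was −0.12, with SE 0.18 and a 95% interval from −0.50 to 0.25, and its adjusted p was 0.822 by edgeR.

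Per length, the members fell into an order that was partly rearranged between the groups. In controls the level per kilobase of exon, in TMM-scaled CPM, was 63.3 ± 12.1 for Ehd2, 45.02 ± 13.1 for Cavin1, 34.5 ± 7.89 for Cav1, 12.6 ± 5.04 for Cavin3, 12.0 ± 3.67 for Cavin2 and 4.51 ± 1.96 for Cav2 (SD, n = 8). With blebbistatin it was 58.1 ± 18.2 for Ehd2, 41.9 ± 11.4 for Cavin1, 21.3 ± 6.37 for Cavin2, 17.1 ± 9.85 for Cav1, 9.84 ± 3.12 for Cavin3 and 2.24 ± 1.05 for Cav2 (SD, n = 8). Thus the mean of Cavin2, the fifth of the members in controls, was the third with blebbistatin, and that of Cav1 went from the third to the fourth. Neighbours were not always separate: Cavin3 exceeded Cavin2 in 3 of 8 controls, Cavin1 exceeded Cav1 in 6 of 8 controls, and Cavin2 exceeded Cav1 in 4 of 8 treated libraries. Ehd2 stood above Cavin1 in 8 of 8 controls and 7 of 8 treated libraries, and Cav2 was below its neighbour in all 16.

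**Figure D2:**
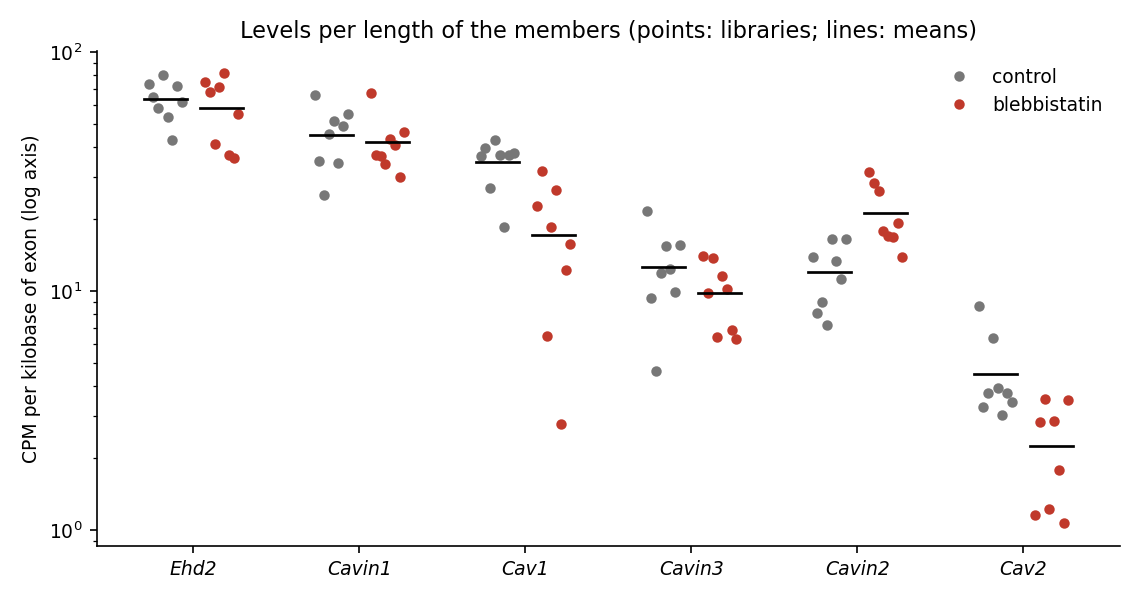
Level of each member per kilobase of exon, in TMM-scaled CPM on a log axis, with points for libraries and lines for means, ordered by the control mean. Ehd2 is highest and Cav2 lowest in both groups, and the Cavin2 mean of the blebbistatin libraries (21.3) stands above that of Cav1 (17.1).

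Ratios of counts within a library need no scaling between libraries, and 5 were computed as log2 ratios with 0.5 added to each count. Each was compared by an exact permutation test (two-sided), with p-values adjusted over these 5 ratios alone and so not comparable with those over all genes. Cavin2 against Cavin1 stood at −1.22 ± 0.46 with blebbistatin and −2.15 ± 0.44 in controls (SD, n = 8 each), a difference of 0.93 (exact p = 0.00155, adjusted 0.00389), with 7 of 8 treated libraries above every control. Over all genes, 4.85% had a higher ratio to Cavin1 at an unadjusted exact p under 0.05. A lower ratio to Cavin1 was found for 3.01% of genes. Cavin3 against Cavin1 differed by −0.21 (exact permutation p = 0.281, adjusted 0.351), and 1 of 8 treated libraries exceeded the control median.

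Against Cav1, the ratio of Ehd2 was 2.59 ± 0.82 with blebbistatin and 1.46 ± 0.23 in controls (SD, n = 8 each), a difference of 1.13 (exact permutation p = 0.000466, adjusted 0.00233), with 7 of 8 treated libraries above every control. The ratio of Cavin1 to Cav1 was 1.63 ± 1.15 and 0.43 ± 0.41, a difference of 1.21 (exact permutation p = 0.00544, adjusted 0.00907), with 5 of 8 above every control. Both share Cav1 as the denominator, and 70.5% of all genes had a higher ratio to Cav1 at an unadjusted exact p under 0.05, so that a higher ratio to Cav1 was common and is not particular to Ehd2 or Cavin1. The ratio of Cav2 to Cav1 differed by 0.23 (exact permutation p = 0.667, adjusted 0.667). It ran from −4.34 to −0.68 with blebbistatin and from −3.64 to −2.13 in controls. Its highest values were in blebbistatin 6 (−0.68) and blebbistatin 3 (−0.93), and without either of these libraries the difference changed sign (−0.078 and −0.043).

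Macrophage markers were highest in the 2 libraries of each group that were lowest in Cav1, but did not follow Cav1 over the other libraries. The 8 macrophage and leukocyte markers summed to 245 to 3313 CPM with blebbistatin and 296 to 4348 CPM in controls. Lyz2 made up most of the mean sum in treated and control libraries (712 and 954 TMM-scaled CPM). Within the treated group, blebbistatin 3 and 6 had the highest sums (3313 and 1602 CPM) and the lowest Cav1. Within the controls, control 6 and 3 had the highest sums (4348 and 2093 CPM) and the lowest Cav1 (63.8 and 92.4 CPM). Blebbistatin 7 and 4, also below every control in Cav1 (42.0 and 63.7 CPM), had sums of 589 and 279 CPM, under the treated median of 852, and blebbistatin 2, the highest treated library in Cav1, had 1114 CPM. The sum itself did not pass between the groups, with means of 1090 ± 1019 and 1248 ± 1375 CPM (SD, n = 8 each; exact permutation test, p = 0.785, adjusted over 11 measures 0.785). The macrophage covariate was another measure, the mean log2 CPM of 7 of these markers. With it, the log2 fold change of Cav1 was −1.10 (adjusted p = 0.0579 by edgeR) and that of Cav2 −1.06 (adjusted p = 0.0858 by edgeR). Both were about as large as without it, and neither passed. In bulk RNA, fewer cells of a type and less RNA per cell cannot be told apart.

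**Figure D3:**
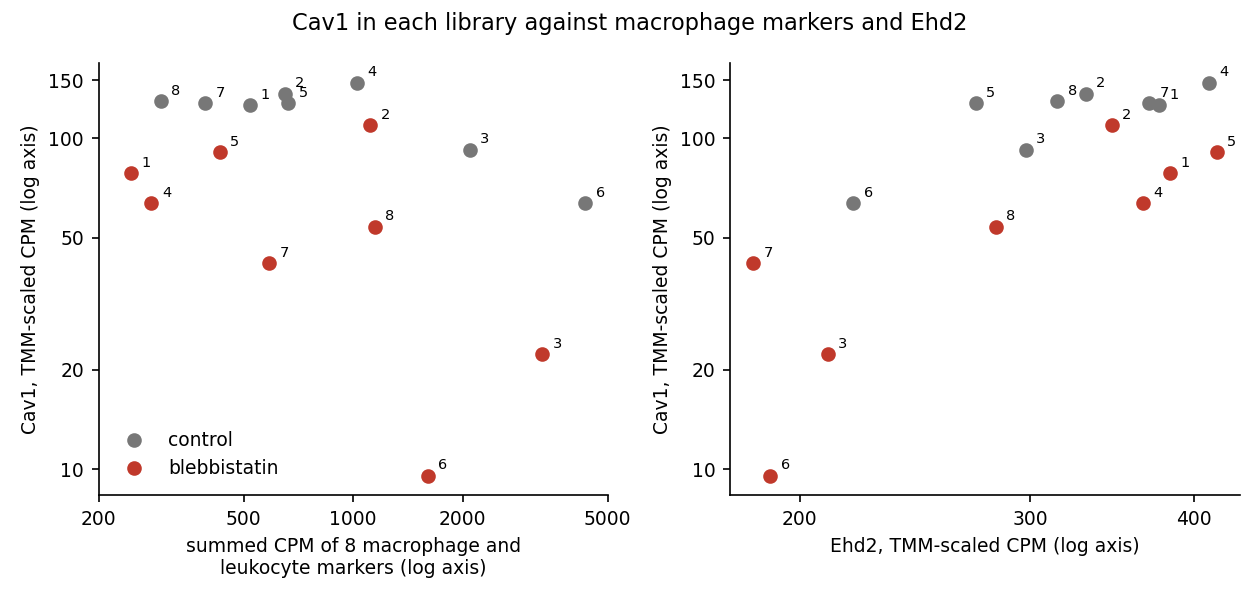
Cav1 in each library, in TMM-scaled CPM, against the summed CPM of 8 macrophage and leukocyte markers (left) and against Ehd2 in TMM-scaled CPM (right), all on log axes, with points numbered by replicate. The lowest Cav1 in each group belongs to replicates 6 and 3, which have the highest macrophage sums of their group.

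Other marker lists were set beside these. The epicardial and mesothelial list, all 12 of whose genes were detected, summed to 3305 ± 1128 CPM in treated and 4493 ± 1273 CPM in control libraries (SD, n = 8 each; exact permutation test, p = 0.0699, adjusted 0.192), with its lowest sums in blebbistatin 6 (1717 CPM) and 3 (2145 CPM). Lrrn4, Upk1b and Upk3b made up most of the sum. Gene by gene, 11 of the 12 had a negative log2 fold change (median −0.47). At an unadjusted p under 0.05, 5 were lower (5.98% of all genes) and 0 higher (6.21% of all genes). Of the 12, 0 passed edgeR, while DESeq2 called Tbx18, Krt18 and Krt19 lower (1.44% of all genes). These values stand beside the lower means of Cav1 and Cav2. The smooth muscle list was lower (193 ± 39.3 against 312 ± 101 CPM, SD, n = 8 each; exact permutation test, p = 0.00373, adjusted 0.0205). Desmin made up most of its sum, and Myh11 stayed between 0.141 and 5.37 CPM. The cardiomyocyte list was higher (947 ± 160 against 645 ± 224 CPM, SD, n = 8 each; exact permutation test, p = 0.0103, adjusted 0.0376), and Tnnt2 alone (853 against 540 CPM) made up that difference. Myl7, the next most abundant of that list, stood at 77.9 against 93.5 CPM (log2 fold change −0.26, adjusted p = 0.748 by edgeR), and Myh6 reached at most 8.33 CPM. Of the 4 cardiomyocyte genes tested, 3 had a positive log2 fold change and 0 passed edgeR. At an unadjusted p under 0.05, 2 were higher (6.21% of all genes), Tnnt2 and Ryr2. DESeq2 called both higher (1.19% of all genes). Ryr2, named after its values were seen, stood at 5.42 against 1.24 CPM (log2 fold change 2.12, adjusted p = 0.1245 by edgeR). The part of the smooth muscle, cardiomyocyte, epicardial and fibroblast lists in the values of the members was not tested.

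Of cell types rich in caveolae, endothelium and fat had markers at low levels. The endothelial list summed to 16.8 to 53.9 CPM with blebbistatin and 30.2 to 66.8 CPM in controls, most of it Tek, with Pecam1 at 0.476 to 5.79 CPM over all libraries. Of its 10 genes 5 were in the table, and Cdh5, Cldn5 and the other 3 were not analysed here. The adipocyte list summed to 0.0588 to 7.97 and 1.74 to 21.9 CPM, and 2 of its 6 genes, Fabp4 and Plin4, were in the table. Neither sum passed between the groups (exact permutation test, p = 0.158 and 0.121, adjusted 0.29 and 0.266). The fibroblast list summed to 9159 ± 2796 and 9638 ± 1656 CPM (SD, n = 8 each; exact permutation test, p = 0.689, adjusted 0.758), but its members went both ways. At an unadjusted p under 0.05, 2 of its 8 genes were higher (6.21% of all genes) and 2 lower (5.98% of all genes). Pdgfra, named after its values were seen, stood at 222 ± 58.7 and 125 ± 39.2 CPM, above the control median in 8 of 8 (log2 fold change 0.82, adjusted p = 0.0555 by edgeR), and passed with DESeq2 (adjusted p = 0.00508) and limma voom (adjusted p = 0.0437). The Schwann and neural list summed to 4.04 ± 2.22 and 3.24 ± 1.32 CPM (SD, n = 8 each; exact permutation test, p = 0.42, adjusted 0.605).

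Within each group, Ehd2 had the highest correlation with Cav1 of the other 5 members. Over the 8 blebbistatin libraries, log2 CPM of Ehd2 and Cav1 had a Pearson r of 0.82 (exact permutation p = 0.0059, adjusted over 10 relations 0.059) and a Spearman rho of 0.79 (exact p = 0.0279, adjusted 0.279), and r was 0.81 without the 2 libraries farthest from the median of Cav1, blebbistatin 3 and 6. Over the 8 controls r was 0.82 (exact permutation p = 0.0152, adjusted 0.0762) and rho 0.64 (exact p = 0.0962, adjusted 0.481), with r at 0.48 without control 3 and 6, so the relation in controls rests largely on those libraries. None of the 10 relations passed after adjustment. Cav2, the neighbour and partner of Cav1, had an r with Cav1 of 0.001 with blebbistatin (exact permutation p = 0.997, adjusted 0.997) and 0.42 in controls (exact permutation p = 0.229, adjusted 0.573). The corresponding rho was −0.05 (exact p = 0.935, adjusted 0.935) and 0.12 (exact p = 0.793, adjusted 0.935), and r without the 2 farthest libraries 0.42 and 0.10. For Cavin1, Cavin2 and Cavin3, r with Cav1 lay between −0.19 and 0.55 and rho between −0.36 and 0.38 in the 2 groups, with unadjusted exact permutation p-values from 0.171 to 0.844 for r and from 0.36 to 0.935 for rho. Without control 3 and 6, r in controls turned from 0.55 to −0.60 for Cavin1 and from 0.27 to −0.49 for Cavin3, and went from −0.19 to −0.84 for Cavin2, so these values rest on those libraries. Without blebbistatin 3 and 6, r in treated libraries was 0.34 for Cavin1, 0.52 for Cavin2 and 0.70 for Cavin3, the last from −0.09.

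By way of description, the genes most like each member were found by the Pearson r of log2 CPM over the 16 libraries after each group's mean was taken off, among genes of at least 5 CPM. Libraries share depth and cell content, and the 3 highest values for each member are given with no test. For Cav1 they were S100a6, a calcium-binding protein (r = 0.94), Map6 (0.94) and Olr1, a receptor of oxidised lipoprotein (0.94). For Ehd2 they included Cald1, the actin-binding protein caldesmon (0.96), and Pvr (0.92). For Cavin1 they were Acta1 (0.90), mt-Co3 (0.90) and Llgl1 (0.90), for Cavin2 Dnajb9 (0.91), Fundc1 (0.83) and Atp5l (0.82), for Cavin3 AI464131 (0.85), Cdca5 (0.82) and Pigp (0.82), and for Cav2 Gprc5b (0.85), Csf2ra (0.84) and Cybc1 (0.82). No gene appeared for more than 1 member. Among the genes named here, Cald1 alone passed between the groups, falling from 2146 to 1199 CPM (log2 fold change −0.84, adjusted p = 0.0434 by edgeR), while Ehd2, whose variation it followed most closely within groups, had a log2 fold change of −0.12. The highest mean r over the 6 members belonged to Acta1 (0.56), Dap (0.56), Raet1e (0.56), Gpx7 (0.55) and Rac1 (0.54). Among the 15 pairs of members this within-group r ran from −0.12 (Cav2 and Cavin2) to 0.80 (Cav1 and Ehd2), with Cavin1 and Cavin3 at 0.75 and Cavin2 and Cavin3 at 0.63.

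The partners of caveolae were examined through lists of genes chosen by name. Of 15 tested genes of the caveola neck, coat and trafficking, 0 passed edgeR, 2 had an unadjusted p under 0.05 with higher values (6.21% of all genes) and 2 with lower values (5.98% of all genes), and the median log2 fold change was −0.13. The 2 of smallest p were relatives of Ehd2. Ehd3, an ATPase of endosomal recycling, ran from 30.4 to 307 CPM with blebbistatin and from 28.4 to 93.7 in controls. Its means were 143 ± 105 and 46.8 ± 20.1 CPM over 8 libraries each (SD), and its log2 fold change was 1.62, with SE 0.39 and an adjusted p of 0.0593 by edgeR. The control median was exceeded by 7 of 8 treated libraries, and Ehd3 passed with DESeq2 (adjusted p = 0.0142). Ehd4 stood at 85.4 ± 37.8 and 50.5 ± 15.3 CPM over 8 libraries each (SD). Its log2 fold change was 0.76, with SE 0.23 and an adjusted p of 0.15 by edgeR, and it lay above the control median in 8 of 8. Ehd1, named after its value was seen as the remaining member of that family, stood at a log2 fold change of −0.33 (adjusted p = 0.477 by edgeR). Pacsin2, which bends the membrane at the caveola neck and was also named after its value was seen, had one of −0.06 (SE 0.14, adjusted p = 0.895 by edgeR). The 2 lower genes were Fyn and Flna, both named after their values were seen. Their log2 fold changes were −0.72 and −0.36 (adjusted p = 0.174 and 0.191 by edgeR), with 7 and 8 of 8 treated libraries below the control median. Of the 15 genes, 10 had a negative log2 fold change and 5 a positive one.

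**Figure D4:**
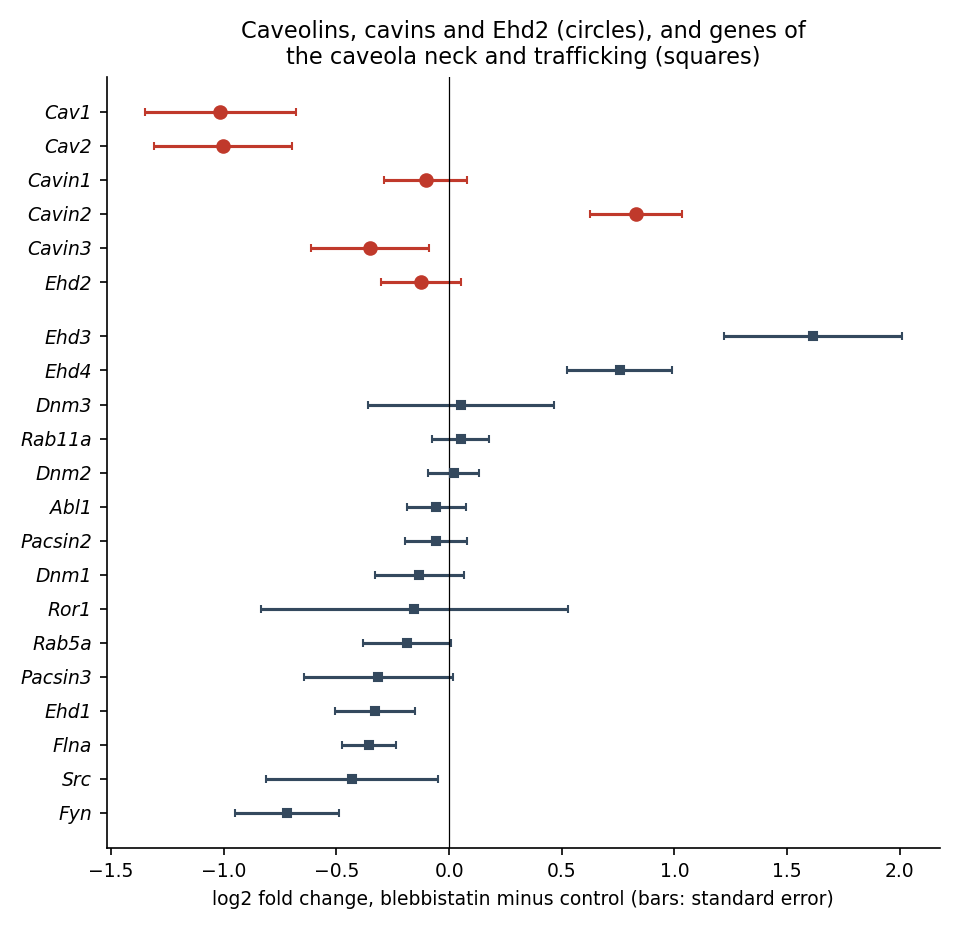
Log2 fold change, blebbistatin minus control, of the 6 members (circles) and of 15 genes of the caveola neck and trafficking (squares), with standard errors as bars. Cav1 and Cav2 stand near −1, Cavin2 at 0.83 and Ehd3 at 1.62, and none of the 21 genes passed edgeR over all genes.

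Of 9 flotillins, stomatins and prohibitins, scaffold proteins of other membrane domains, 0 passed edgeR and 0 had an unadjusted p under 0.05 (median log2 fold change −0.07), with 0 calls by DESeq2 or limma voom. Those of smallest p were Stoml2 (−0.37, adjusted p = 0.577 by edgeR) and Phb (−0.26, adjusted p = 0.599 by edgeR). Of 12 receptors and signalling proteins known to gather in caveolae, 0 passed edgeR, DESeq2 or limma voom and 1 had an unadjusted p under 0.05 (median −0.05). That was Slc2a4, the insulin-responsive glucose transporter, at 1.96 ± 1.96 and 0.508 ± 0.513 CPM (SD, n = 8 each; log2 fold change 1.94, adjusted p = 0.327 by edgeR), a level of few counts. Bmpr1a, a receptor of bone morphogenetic proteins, followed (0.27, adjusted p = 0.458 by edgeR).

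Of 17 genes that sense membrane tension or repair the membrane, 0 passed edgeR, DESeq2 or limma voom and 0 had an unadjusted p under 0.05 (median −0.04). Piezo1, a channel opened by membrane tension, had means of 310 ± 82.4 and 398 ± 88.8 CPM in treated and control libraries (SD, n = 8). Its log2 fold change was −0.36, with SE 0.18 and an adjusted p of 0.425 by edgeR, and 8 of 8 treated libraries lay below the control median. Anxa1, an annexin, had one of −0.23 (adjusted p = 0.446 by edgeR). Of 23 genes of cholesterol supply, 0 passed edgeR, DESeq2 or limma voom and 1 had an unadjusted p under 0.05 (median 0.02). It was Abca1, which exports cholesterol from cells, at 92.8 ± 36.7 and 64.4 ± 9.28 CPM (SD, n = 8 each; log2 fold change 0.53, adjusted p = 0.245 by edgeR).

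Of 9 genes of sphingomyelin and phosphatidylserine supply, 0 passed edgeR, DESeq2 or limma voom and 1 had an unadjusted p under 0.05 (median 0.04). Sgms2, a sphingomyelin synthase of the plasma membrane, had means of 11.3 ± 6.84 and 23.1 ± 10.4 CPM over 8 libraries each (SD). Its log2 fold change was −1.03, with SE 0.35 and an adjusted p of 0.206 by edgeR, and 7 of 8 treated libraries lay below the control median. Smpd3, a sphingomyelinase, had one of −0.72 (adjusted p = 0.441 by edgeR). Of 18 genes of the clathrin coat, the other main route of uptake at the membrane, 0 passed edgeR, DESeq2 or limma voom and 3 had an unadjusted p under 0.05, 2 higher and 1 lower, near the 12.2% of all genes (median −0.08). The 2 of smallest p, both higher, were the adaptor subunit Ap2s1 (0.63, adjusted p = 0.225 by edgeR) and Dab2, an endocytic adaptor (0.36, adjusted p = 0.305 by edgeR). The lower one, Bin1, named after its values were seen, stood at a log2 fold change of −0.51 (adjusted p = 0.34 by edgeR), with 8 of 8 treated libraries below the control median.

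Total counts ran from 20176386 to 89620195 per library with blebbistatin and from 27065611 to 60321622 in controls. Blebbistatin 1 and 8 had the fewest genes detected (15468 and 15492). Without both, Cav1, Cav2 and Cavin2 had log2 fold changes of −1.08, −1.03 and 0.79. Blebbistatin 3, blebbistatin 6 and control 6 stood together at one end of the first principal component of all genes, which held 16.7% of the variance. Without these 3, which include the 2 treated libraries lowest in Cav1, the log2 fold changes were −0.79 for Cav1, −1.16 for Cav2 and 0.85 for Cavin2 (adjusted p = 0.0747, 0.188 and 0.15 by edgeR). The mitochondrial share of counts was 21.4 ± 3.21% in treated and 16.4 ± 1.70% in control libraries (SD, n = 8 each; exact permutation test, p = 0.00326, adjusted 0.0205). With these genes taken out before scaling, the log2 fold change of Cav1 was −1.01.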

How the data were processed

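Each library holds amplified RNA of 1 explant (Ovation V2 amplification, Nextera XT fragments), per the labels' protocols. The authors deposited raw read counts per gene, and this count is the unit used. The submitters' processing notes name edgeR, HTSeq 0.6.1p1, SAMtools 1.3, TopHat2 2.1.0 and Bowtie2 2.2.6.0, and mm10 (GRCm38) as the build. The role of each, the annotation release, the strand setting and any filter of genes were not stated. Symbols were restored from Ensembl identifiers, of which 15665 of 15805 matched GENCODE M21 (GRCm38), the source of gene positions and exon lengths. Promoter windows are those of RefSeq (GRCm38.p6), cut to the 250 bases before the start.

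Counts were scaled by TMM and filtered with filterByExpr, which left 15675 genes, all 6 members among them. The main test was edgeR 4.0.16 (R 4.3.3), a robust quasi-likelihood fit with group as the only term and Benjamini-Hochberg adjustment over all tested genes. DESeq2 1.42.0 and limma 3.58.1 (voom) were alternatives, with other scalings, filters and covariates, and each library left out in turn. Log2 CPM used a prior count of 2, and marker sums used CPM of total counts without TMM scaling. Intervals use the standard error and the fit's degrees of freedom. On counts simulated from these libraries over 15598 genes, edgeR found 46 of the 100 genes given a 2-fold change and 81 of the 100 given a 4-fold one. No library repeated another within its group (closest pair control 7 and 8, chi-square 48.5 per degree of freedom).

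The members and lists were chosen with earlier results of these data known. The named genes are the members, those called in each list or otherwise its 2 of smallest p, the 3 genes most like each member and the 5 most like all, and Ccn2 and Acta2, and the text says where another gene was named after its values were seen. Some genes that this rule names are not reported here.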

Additional observations from a re-analysis of the deposited data

Results flagged for a closer look

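In each group of 8, a library was singled out where its gap to the nearest other library exceeded the 95% critical share of the group's range (0.526, Dixon's criterion). Chance alone marks about 1 group in 20, and 5 of the 44 groups examined were marked. Among the members, Cavin1 in blebbistatin 1 stood apart at 241 CPM. Blebbistatin 2 (89620195) and control 5 (60321622) stood apart in total counts. Blebbistatin 3 (3313 CPM) and control 6 (4348 CPM) stood apart in the summed macrophage and leukocyte markers.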

How the results depend on the processing

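None of the 6 log2 fold changes turned its direction under the 29 alternatives run for each. Calls appeared in a few. Cav1 passed with DESeq2 (−1.02) and with the replicate block (−1.28, adjusted p = 0.0357), Cav2 with DESeq2 (−1.01), and Cavin2 with DESeq2 (0.83), with the filter of 5 CPM in 8 libraries (0.84) and with the macrophage covariate (0.83). Over all alternatives Cav1 ran from −1.28 to −0.79 (adjusted p 0.0357 to 0.383), Cav2 from −1.22 to −0.81 (0.0395 to 0.282) and Cavin2 from 0.72 to 0.91 (0.00865 to 0.267). As each library was left out, they ran from −1.21 to −0.85, −1.13 to −0.81 and 0.72 to 0.91, and none of the 3 passed. Cavin1 (−0.29 to −0.01), Cavin3 (−0.48 to −0.20) and Ehd2 (−0.21 to −0.04) passed under none.

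The number of calls over all genes, 95, was 412 with DESeq2, 170 with the filter of 5 CPM, 177 (1.13% of 15675) with the replicate block, 21 with a covariate of Y-linked genes, 255 with the macrophage covariate and 44 to 206 as each library was left out. It was 206 without control 6, 180 without blebbistatin 5, and 44 to 62 without blebbistatin 6, blebbistatin 8 or control 1, 2, 4, 7 or 8. The cause was not tested. The ratio of Cav2 to Cav1 ran from −0.078 (without blebbistatin 6) and −0.043 (without blebbistatin 3) to 0.45 as libraries were left out, and the other 4 ratios kept their direction and their side of the threshold. The fit without blebbistatin 3, blebbistatin 6 and control 6 was chosen after seeing the data. Replicate numbers are shared between the groups, but deviations of same-numbered libraries correlated by over 0.1 in 4 of 8 numbers (0.00 to 0.28), and 2 of 8 matched their own number best, so the block pairs libraries by number only. Of the caveola neck list, Ehd4 also passed with the block (adjusted p = 0.0162), as did Krt18, Krt19 and Pdgfra among the markers (0.0458, 0.0197 and 0.0492). Cav2 is limited by depth, with as few as 85 counts in a library.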
